A study of Mus musculus with 24 samples.

Results

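Circadian time 18, in the middle of the projected night, was compared with circadian time 10, late in the projected day, in the whole adrenal gland of the mouse, which holds both the steroid-making cortex and the catecholamine-making medulla. Samples were chosen by their titles: adrenals taken 46 and 70 h after lights off stand for circadian time 10, and those taken 54 and 78 h after lights off for circadian time 18, each with 1 unlettered array (here replicate 1) and 1 array lettered B (replicate 2). This gave 8 of the 24 arrays of the series, 4 per circadian time. All mice were 3-month-old wild-type males of strain C57B/6J that had been kept for 2 weeks in 12 h of light and 12 h of darkness and then in constant darkness. The labels name no other treatment, and by them the groups differ in the time of killing alone. The arrays of 70 h were near-copies of each other, and so were the unlettered arrays of 54 and 78 h. Each near-copy pair was averaged and counted once. The comparison therefore rests on 6 profiles, 3 per circadian time. The second near-copy pair joins 2 different collection times, so its profile cannot be assigned to 1 cycle of the experiment. The labels do not say that the arrays come from separate animals, so p-values measure the spread between these profiles, which may be partly technical.

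The clock of mammalian cells is a transcriptional loop. BMAL1 (gene Arntl) and CLOCK bind E-box elements and switch on the Per and Cry genes, whose proteins feed back on them, and also Nr1d1 and Nr1d2, whose products REV-ERB alpha and beta repress Arntl, Cry1 and Nfil3 through their own response element, where ROR proteins activate. DBP, TEF and HLF carry the rhythm to further genes. In the adrenal cortex this local clock works beside pituitary ACTH, which acts through cAMP, and glucocorticoid output of a nocturnal animal peaks around dusk. Circadian times 10 and 18 thus lie on either side of projected dusk.

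At circadian time 18 Arntl, Cry1, Clock and Nfil3 were higher, and Dbp, Nr1d1, Nr1d2, Per1, Ciart, Tef and Hlf were lower. Of 19 cholesterol synthesis enzymes and 21 heat shock genes 10 each were higher at that time, while Nr4a1, Sik1, Junb and Dusp1, which ACTH or other stimuli induce, were lower. Of 91 genes of the respiratory chain 22 were higher, and of 73 of the mitochondrial ribosome 17. In limma's moderated test on log2(signal + 51), with Benjamini-Hochberg adjustment over 13880 genes and a threshold of 0.05, 834 genes differed, which is 6.01% of those tested. Of these, 496 (3.57%) were higher and 338 (2.44%) lower at circadian time 18. The median size of a called difference was 0.62 on the log2 scale, and 90 of the called genes differed by at least 1. In all 834 the 3 profiles of one time lay outside the range of the other, which held for 29.4% of all tested genes. Leaving out any 1 profile gave between 53 calls (without 46 h replicate 1) and 1293 (without 54 h replicate 2), and leaving out 78 h replicate 2 gave 860, of which 708 were among the 834. Of 118 genes named by rule, 97 were called. Outside the core clock and clock output lists the rule takes called genes only, so this share is no result. In these 97 the times did not overlap, so leaving out 1 profile could not change a sign. Of them, 20 stayed called in each of the 6 cases. The other probe sets of the named genes often did not share the call: 23 (of 18 genes) gave the same call, 37 (of 31 genes) were not called where the one used was, and 26 went with genes not called by either. In Acsm2, Ahsa1, Eif6, Ern1, Fdps, Fkbp4, Mrap, Ptch1, Tfrc, Thsd7a and Txn1 an uncalled other probe set had the opposite sign.

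The 2 times also differed in control probe sets of the arrays. The signal of the 5' end of the 18S ribosomal RNA control was 857 to 1041 at circadian time 10 and 74.3 to 679 at circadian time 18, with no overlap (exact permutation test, two-sided, p = 0.1, the smallest that 3 against 3 allows). Its 3' end showed the same order, 2440 to 2589 against 606 to 1967. Gapdh signal from the 5' end, divided by that from the 3' end, was 0.846 to 0.949 at circadian time 10, and 0.95, 0.978 and 0.0386 at circadian time 18, the last in 78 h replicate 2. These 8 arrays also stand apart from the other 16, whose 12 profiles had a 5' 18S signal of 5323 to 6869 and a ThrX-3 spike control of 56.4 to 101, against 513 to 1821 here. The profiles of circadian time 18 were less alike than those of circadian time 10, with a median SD of 0.17 against 0.097. With the 5' 18S signal as a covariate, an alternative added after the data were seen, 74 genes were called, and with the Gapdh ratio as a covariate 904, of which 734 were among the 834. Markers of the adrenal cortex were at like levels, with summed signals of 73670 to 78210 and 70820 to 81960.

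**Figure D1:**
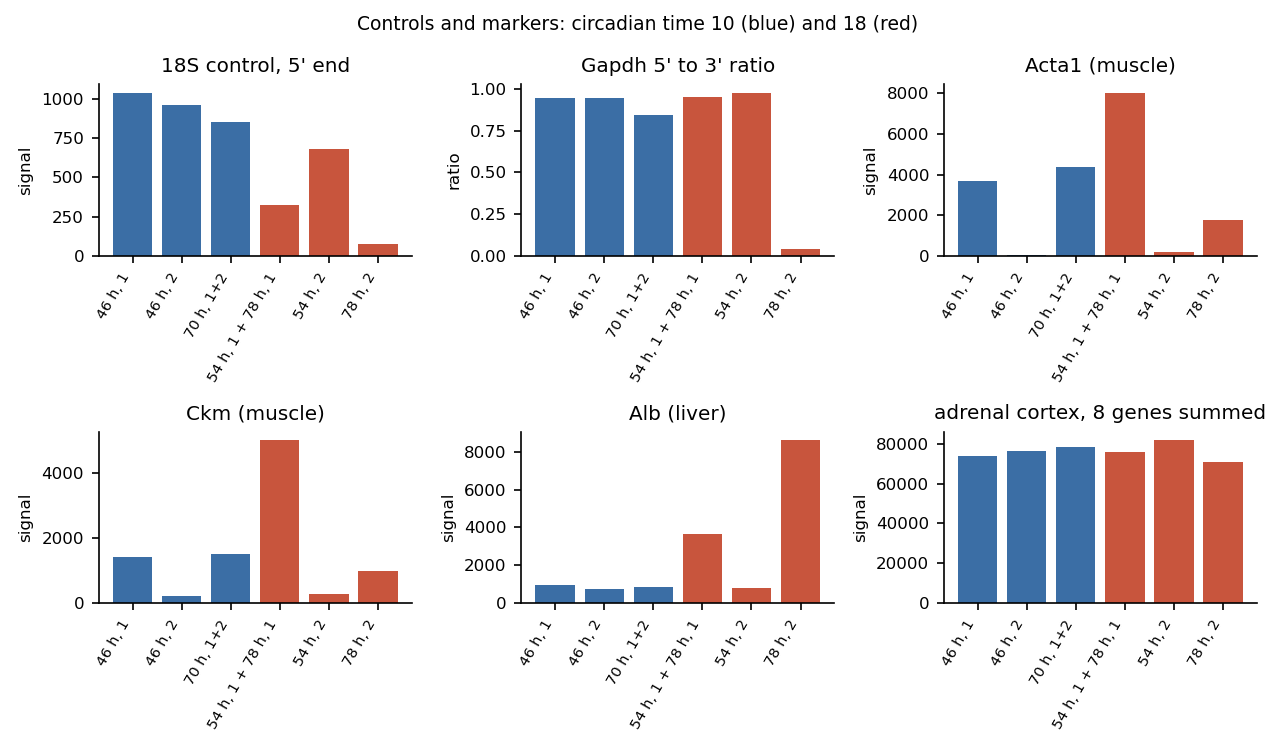
Array controls and tissue markers in the 6 profiles, as linear signal or ratio, with bars for circadian time 10 in blue and 18 in red; labels give the hours after lights off and the replicate number. The 5' 18S signal was 857 to 1041 at circadian time 10 and 74.3 to 679 at circadian time 18, the Gapdh ratio was 0.0386 in 78 h replicate 2 alone, and Alb was highest in that profile, at 8621.

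Core clock genes were called in both directions. Of 22 listed members 19 were tested, and 3 were higher (Arntl, Cry1, Clock) and 5 lower (Nr1d1, Per1, Nr1d2, Ciart, Csnk1e) at circadian time 18, or 42.1% called against 6.01% of all genes. The median difference of all 19 was -0.09. Promoter windows from RefSeq (build GRCm38.p6, from 250 bases before to 50 after the start) were found for 15 of the 19. The E-box searched, CACGTG, reads the same on both strands and was present in 4 of the 15 (Per1, Cry1, Ciart, Bhlhe41), against 8.09% of all 27025 genes with a window. The REV-ERB/ROR element, TAGGTCA or TGGGTCA on either strand, was present in Arntl among these 15, and in Nfil3 and Leo1 among the 17 clock output genes with a window, against 7.35% of all genes. The 250 bases before the start are shown for Per1, Cry1 and Nfil3, and 30 bases after the start for Arntl, because these genes hold a match and are described with their values next. Leo1, Tef and other called genes with a match are not shown. Capitals mark the E-box in Per1 and Cry1 and the REV-ERB/ROR element, or its reverse complement, in Arntl and Nfil3. A match is a description of the letters and not of binding.
Per1, chr11:69098699-69098948, plus strand: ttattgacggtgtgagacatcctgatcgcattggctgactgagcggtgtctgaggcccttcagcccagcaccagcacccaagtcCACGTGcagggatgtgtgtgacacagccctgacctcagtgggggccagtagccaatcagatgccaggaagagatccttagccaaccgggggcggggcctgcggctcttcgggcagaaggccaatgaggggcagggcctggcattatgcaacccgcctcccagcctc
Cry1, chr10:85185055-85185304, minus strand: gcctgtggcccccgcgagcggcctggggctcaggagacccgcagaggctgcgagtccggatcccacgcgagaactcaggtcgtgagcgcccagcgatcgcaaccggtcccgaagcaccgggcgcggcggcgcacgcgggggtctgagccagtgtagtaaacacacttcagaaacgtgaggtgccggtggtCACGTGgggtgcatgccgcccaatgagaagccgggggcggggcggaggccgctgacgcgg
Arntl, chr7:113207529-113207558, plus strand: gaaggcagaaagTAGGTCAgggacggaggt
Nfil3, chr13:52981040-52981289, minus strand: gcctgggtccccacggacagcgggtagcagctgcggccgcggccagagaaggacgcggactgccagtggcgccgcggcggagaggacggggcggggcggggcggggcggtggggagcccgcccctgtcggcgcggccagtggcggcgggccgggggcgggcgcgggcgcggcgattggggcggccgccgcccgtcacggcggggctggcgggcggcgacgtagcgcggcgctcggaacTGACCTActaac

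Arntl encodes BMAL1, the activator of the loop. Its signal was listed at 0 in 46 h replicate 1 and in the 70 h profile and was 47.2 in 46 h replicate 2, and it was 583, 1115 and 876 in the profiles of circadian time 18. All 3 profiles of the later time were thus far above the earlier ones, and with values of 0 no fold is given. A second Arntl probe set had 0.28 and was not called (limma adjusted p = 0.186). On the log2(signal + 51) scale the difference was 3.80 ± 0.30 (SE, n = 3 and 3, limma adjusted p = 0.00282). Clock, its partner, rose less by the probe set used, from 685, 713 and 561 to 903, 1200 and 1063, a difference of 0.65 ± 0.14 (limma adjusted p = 0.0341). Its other probe sets had 0.11 and 0.13 and were not called (limma adjusted p = 0.754 and 0.605). The call of Clock was lost without any 1 of 46 h replicate 1, 46 h replicate 2, the 70 h profile or 54 h replicate 2, with adjusted p up to 0.14. Npas2, the alternative partner of BMAL1, had signals of 166 to 218 and 187 to 221 and was not called (0.05 ± 0.13, limma adjusted p = 0.876).

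The repressors downstream did not move as one. Per1, an early-responding member of the Period family, had signals of 1224, 1246 and 1197 at circadian time 10 and of 312, 447 and 243 at circadian time 18. The 2 ranges lay far apart, and the fall was -1.76 ± 0.18 (limma adjusted p = 0.00458). Per2 had signals of 1201 to 1348 and 1003 to 1449, which overlap, and was not called (-0.09 ± 0.14, adjusted p = 0.767 by limma). Per3 was not called either (-0.29 ± 0.12, adjusted p = 0.188 by limma). Cry1, the late-expressed cryptochrome, rose from 348, 450 and 295 to 972, 1350 and 1166, by 1.55 ± 0.17 (limma adjusted p = 0.00458). Cry2 overlapped between the times, at 720 to 794 and 560 to 750 (-0.25 ± 0.13, adjusted p = 0.291 by limma). Ciart, a further repressor of BMAL1 and CLOCK, was lower (-0.79 ± 0.13, limma adjusted p = 0.0166), and Bhlhe40 and Bhlhe41, which encode DEC1 and DEC2, were not called (-0.38 and -0.03). Csnk1e, a kinase that phosphorylates PER proteins, was lower by the probe set used (-0.59 ± 0.13, limma adjusted p = 0.0384), while its other probe sets, with -0.98 and -0.20, were not called.

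Both REV-ERB genes were higher at circadian time 10. Nr1d1 had signals of 1346, 1189 and 1781 at that time and of 172.5, 96.5 and 105 at circadian time 18, an 8.51-fold fall on the offset scale (-3.09 ± 0.20, limma adjusted p = 0.00257, the lowest of the core clock list). Nr1d2 fell from 3851, 3525 and 3774 to 1581, 1353 and 1124, by -1.44 ± 0.13 (limma adjusted p = 0.00302). No profile of one time came near the other in either gene. Rora and Rorb, the activators at the same element, were not called (0.35 ± 0.12 and 0.04 ± 0.10, adjusted p = 0.125 and 0.878 by limma). The other Rora probe sets all had negative differences, from -0.94 to -0.06, and were not called either. Arntl, Cry1, Per1, Nr1d1 and Nr1d2 stayed called without any 1 profile and with the 5' 18S covariate.

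**Figure D2:**
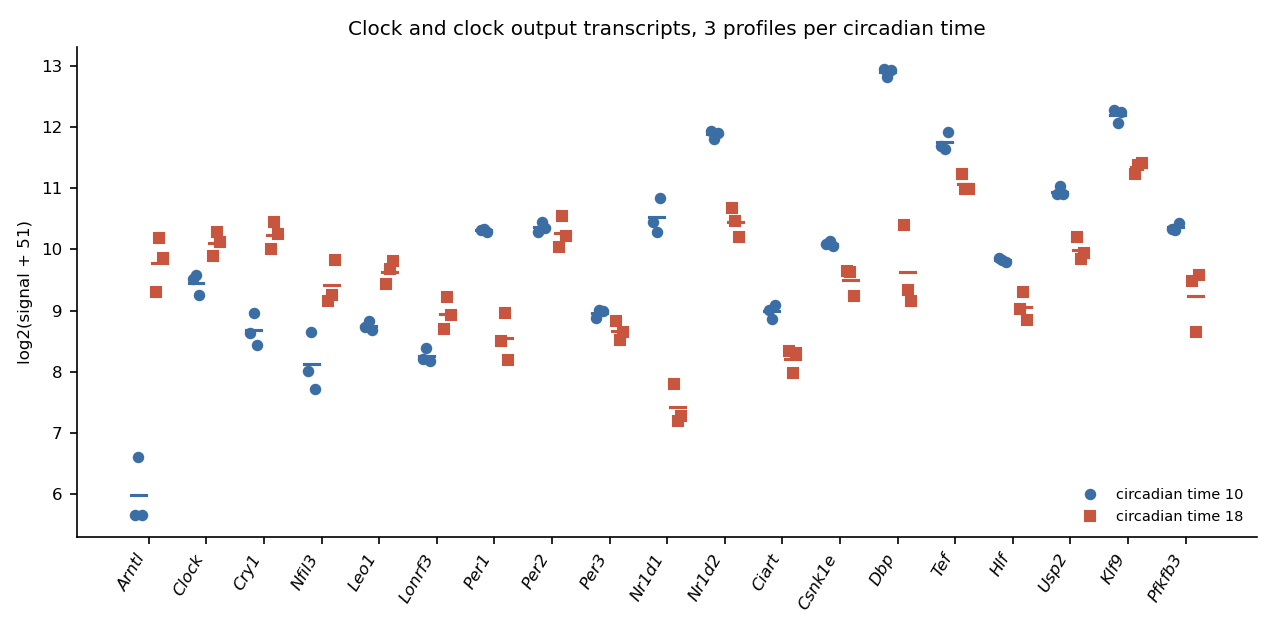
Levels of clock and clock output genes as log2(signal + 51), with each point 1 profile (blue circles, circadian time 10; red squares, circadian time 18) and short lines for the mean of the 3 profiles. Arntl, Cry1 and Nfil3 lie higher at circadian time 18, Per1, Nr1d1, Nr1d2 and Dbp lie lower without overlap, and Per2 overlaps.

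Clock output genes were called in both directions, more of them lower than higher. Of 19 tested members, 6 were lower (Dbp, Klf9, Usp2, Tef, Hlf, Pfkfb3) and 3 higher (Nfil3, Leo1, Lonrf3), or 47.4% against 6.01% of all genes, with a median difference of -0.38 against -0.00032 for all genes. Dbp, the D-box activator, had signals of 7826, 7205 and 7777 at circadian time 10 and 1294, 593 and 522 at circadian time 18. The difference of -3.27 ± 0.28 (limma adjusted p = 0.00302) was the most negative of all named genes, and the profile of 54 and 78 h replicate 1 was the highest of the 3 late ones. Nfil3, which encodes the repressor E4BP4 acting at the same D-box, moved the other way, from 207, 351 and 161 to 521, 561 and 852 (1.28 ± 0.26, limma adjusted p = 0.0278). Tef and Hlf, the other 2 factors of the Dbp family, fell less than Dbp, by -0.68 ± 0.11 and -0.78 ± 0.13 (limma adjusted p = 0.0151 and 0.0162). Klf9, a glucocorticoid- and clock-responsive zinc finger factor, fell from 4896, 4245 and 4810 to 2358, 2606 and 2667 (-0.86 ± 0.09, limma adjusted p = 0.00458), and 3 of its 5 other probe sets gave the same call. Usp2, a deubiquitinase, fell by -0.95 ± 0.12 and Pfkfb3, which makes an activator of glycolysis, by -1.12 ± 0.23 (limma adjusted p = 0.00712 and 0.0286). Leo1, a subunit of the PAF1 transcription complex, and Lonrf3 were higher, by 0.89 ± 0.13 and 0.69 ± 0.15. Wee1, Nampt, Cdkn1a, Klf10, Klf13, Klf15, Coq10b, Tspan4, Tsc22d3 and Cys1 were not called. Without 46 h replicate 1 the list had 2 called members (Dbp and Klf9), and without 78 h replicate 2 it again had 3 higher and 6 lower. All genes together had 53 and 860 calls in these cases, against 834.

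Nr4a1, Sik1 and 4 immediate early genes were lower at circadian time 18, while Mrap, the accessory protein of the ACTH receptor, was higher. Among 30 tested genes of ACTH and cAMP signalling, 2 were lower (Nr4a1, Sik1) and 2 higher (Mrap, Pde8b), or 13.3% called against 6.01% of all genes, with a median of 0.01. Nr4a1, the nuclear receptor NUR77 that ACTH induces, fell from 7706, 8946 and 7892 to 3549, 3821 and 2855 (-1.26 ± 0.12, limma adjusted p = 0.00302). Sik1, a cAMP-induced kinase that restrains CREB coactivators, fell from 785, 1029 and 651 to 232, 292 and 208 (-1.55 ± 0.18, limma adjusted p = 0.00528). All early profiles lay above all late ones in both genes, and both stayed called without any 1 profile. Mrap, which the ACTH receptor needs to reach the cell surface, rose from 2592, 2744 and 2360 to 4541, 4104 and 4464 (0.76 ± 0.09, limma adjusted p = 0.00535), while its second probe set had -0.11 and was not called. Pde8b, a phosphodiesterase of the cortex, rose by 0.55 ± 0.12 (limma adjusted p = 0.0394). Its call was lost without any 1 of 4 profiles. The receptor itself, Mc2r, was not called (0.12 ± 0.08, limma adjusted p = 0.432). Immediate early genes, which stimuli induce within minutes, gave 4 falls and no rise among 14 tested (28.6% called, against 2.44% of all genes that fell), with a median of -0.55. Junb fell from 871, 564 and 1125 to 255, 137 and 65.1 (-2.21 ± 0.35), Dusp1 from 2983, 1972 and 2960 to 1342, 1363 and 1484 (-0.87 ± 0.16), and Jun by -0.70 ± 0.12 (limma adjusted p = 0.0132, 0.0215 and 0.0165). Fos and Egr1 had differences of -1.20 and -0.57 but were not called (limma adjusted p = 0.128 and 0.214). Fosl2, of the AP-1 family, was the fourth to fall, by -0.32. Without 46 h replicate 1, without the 70 h profile, or with either the 5' 18S or the Alb signal as a covariate, no immediate early gene was called by limma, and without the profile of 54 and 78 h replicate 1 there were 2. All genes together gave 53, 103, 74, 184 and 485 calls in those settings, in that order. At an unadjusted p under 0.05 by limma the list had 11 of 14 genes in the comparison of all 6 profiles. Of all 13880 genes 3086 passed there.

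The steroid-making enzymes did not take part in these calls. None of the 13 tested genes of steroid synthesis was called by limma. An unadjusted p under 0.05 was found in 3 of the 13, against 3086 of all 13880 genes. The differences of the 13 ran from -0.195 to 0.503. Star, which carries cholesterol into the mitochondrion, had signals of 12740, 13270 and 13470 against 11050, 12700 and 11030 (-0.185 ± 0.0655, limma adjusted p = 0.142). Nr5a1, the cortex factor SF-1, had the highest difference, 0.50 ± 0.14 (limma adjusted p = 0.0777).

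Cholesterol synthesis was higher at circadian time 18 over much of the pathway. Of 19 tested enzymes 10 rose and none fell, or 52.6% against 3.57% of all genes that rose, with a median of 0.56, and 17 of the 19 differences were above 0. In the mevalonate branch Fdps, farnesyl diphosphate synthase, rose from 1252, 1393 and 1231 to 2819, 3834 and 3235 (1.31 ± 0.12, limma adjusted p = 0.00345). Pmvk, Idi1 and Mvk of the same branch rose by 1.05, 0.92 and 0.56. In the sterol branch Cyp51, lanosterol demethylase, rose from 832, 841 and 713 to 1493, 2491 and 2046 (1.26 ± 0.18, limma adjusted p = 0.00977). Sqle, squalene epoxidase, rose from 912, 1097 and 843 to 1541, 2666 and 2265 (1.11 ± 0.20, limma adjusted p = 0.0184). In all 3 genes the late profile of 54 h replicate 2 was the highest, and no early profile reached the lowest late one. Fdft1, Hsd17b7, Msmo1 and Sc5d also rose. Lss, lanosterol synthase, had a difference of 1.12 but an adjusted p of 0.0545 by limma. Ggps1, which leads away from sterols, had -0.64 (limma adjusted p = 0.0947). None of 9 tested genes of SREBP control was called by limma. At an unadjusted p under 0.05 by limma 3 of the 9 passed, against 3086 of all 13880 genes. Of 12 genes of cholesterol uptake and storage 1 was called, Lipe, the hormone-sensitive lipase that frees cholesterol from its esters (-1.04 ± 0.18, limma adjusted p = 0.0163). The sterol element CACCCCAC, on either strand, was found in 1 of 16 enzyme promoters (Hmgcs1), against 3.3% of all genes. Fdps stayed called without any 1 profile, although its second probe set had -0.09 and was not called (limma adjusted p = 0.676), and the second probe set of Cyp51 rose by 1.11. The list had 1 call without 46 h replicate 1 or without the 70 h profile, 2 without 46 h replicate 2, and 8 without 78 h replicate 2. It had 1 with the 5' 18S covariate and 4 with Alb as a covariate. Over all genes those settings gave 53, 103, 166, 860, 74 and 184 calls, in that order, against 834.

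Heat shock proteins and their partners were called in 1 direction, higher at circadian time 18. All 21 tested members had differences above 0, 10 of them called (47.6% against 3.57%), with a median of 0.39. Hsf1 target promoters carry inverted GAA repeats. The form searched, GAANNTTC, which both strands share, was present in 11 of the 17 members with a window, against 9.04% of all genes. It is shown in capitals for the 3 genes with the largest differences, in the 250 bases before the start of Hspa1a and Fkbp4 and in 30 bases after the start of Hsph1.
Hspa1a, chr17:34972157-34972406, minus strand: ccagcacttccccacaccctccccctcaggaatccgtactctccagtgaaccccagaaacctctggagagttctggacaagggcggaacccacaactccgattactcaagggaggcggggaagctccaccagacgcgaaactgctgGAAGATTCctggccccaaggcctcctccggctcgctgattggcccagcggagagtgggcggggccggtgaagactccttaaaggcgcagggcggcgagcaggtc
Fkbp4, chr6:128438657-128438906, minus strand: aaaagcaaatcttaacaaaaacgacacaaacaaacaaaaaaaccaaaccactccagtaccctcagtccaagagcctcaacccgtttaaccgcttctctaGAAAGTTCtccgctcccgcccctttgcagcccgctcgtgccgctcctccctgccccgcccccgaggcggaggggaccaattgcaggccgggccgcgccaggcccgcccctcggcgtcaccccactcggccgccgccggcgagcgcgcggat
Hsph1, chr5:149636277-149636306, minus strand: tgcagattctgGAAAGTTCtcctcagtagg

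Fkbp4, a cochaperone of HSP90 and of steroid receptors, rose from 732, 939 and 800 to 2017, 2134 and 1943 (1.26 ± 0.12, limma adjusted p = 0.00302) and stayed called without any 1 profile. A second Fkbp4 probe set had a difference of -0.04 and was not called. Hsph1, a nucleotide exchange factor of HSP70, rose from 1440, 2078 and 1442 to 2998, 4194 and 4004 (1.16 ± 0.18, limma adjusted p = 0.0117). Hspa1a, the inducible HSP70, rose from 586, 892.5 and 643 to 1470, 1848 and 1420 (1.12 ± 0.17, limma adjusted p = 0.0119). The early profile of 46 h replicate 2 was the highest of its group in all 3 genes, and the groups did not overlap. Hspa1b, a near-identical copy of Hspa1a whose signal may not be separable from it, rose by 0.98. Ahsa1, which activates HSP90, Chordc1, Hspb1, Dnaja1, Hspe1 and Hspa9 rose by between 0.32 and 0.87. Without 46 h replicate 1 or the 70 h profile 1 member was called, without 46 h replicate 2 there were 6, and without 78 h replicate 2 there were 10. With the 5' 18S covariate 1 was called and with Alb as a covariate 4. In the same order, all genes together gave 53, 103, 166, 860, 74 and 184 calls, against 834. Of 22 tested folding genes of the endoplasmic reticulum, 3 rose (Pdia6, Creld2, Calr) and 2 fell, Ern1 and Eif2ak3, the stress sensors IRE1 and PERK (-0.35 ± 0.08 and -0.60 ± 0.13, limma adjusted p = 0.036 and 0.0366), or 22.7% called against 6.01% of all genes. The other probe sets of Ern1 had 0.34 and 0.29 and were not called. Cirbp, the cold-inducible RNA-binding protein, moved against the heat shock genes. It fell from 1900, 1621 and 1887 to 670, 451 and 494 (-1.67 ± 0.15, limma adjusted p = 0.00302) and stayed called without any 1 profile. Srsf5, a splicing factor, fell by -0.68 ± 0.09 (limma adjusted p = 0.00977).

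**Figure D3:**
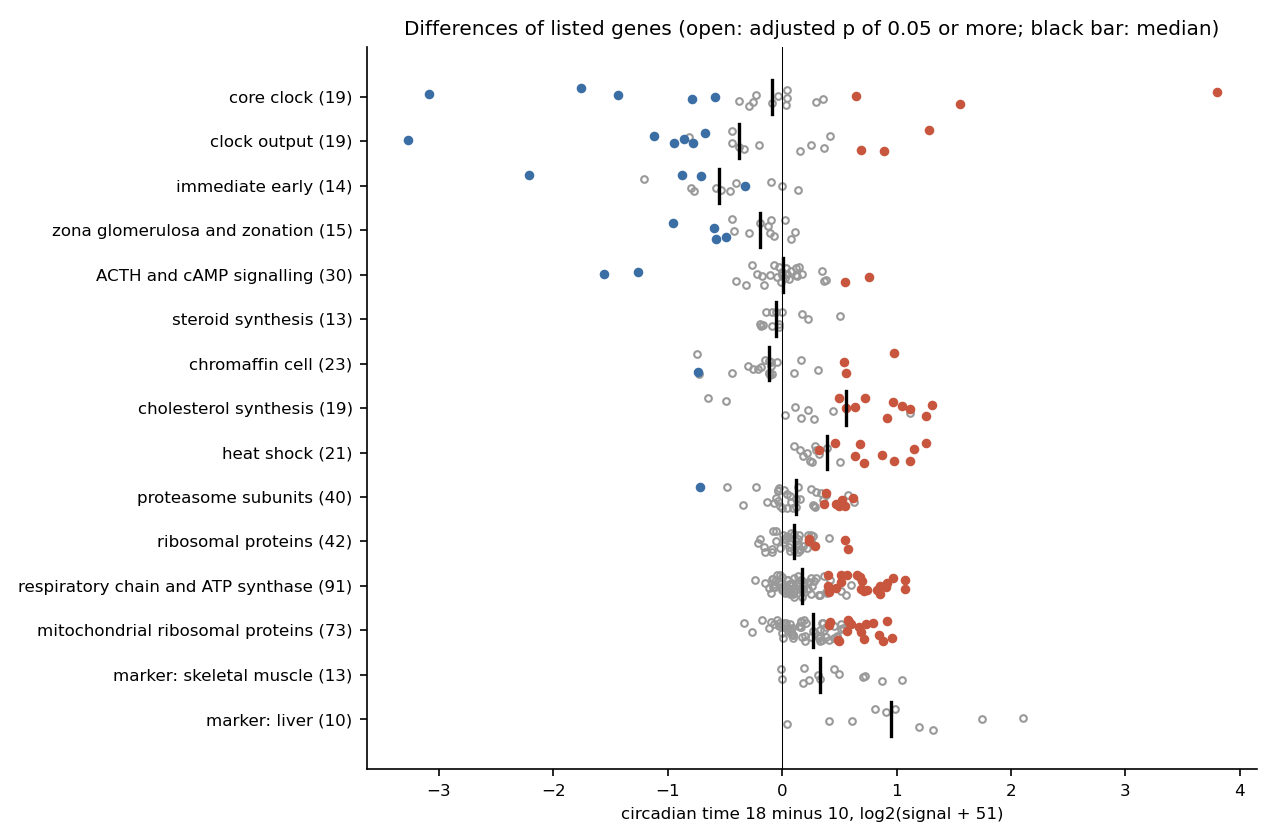
Difference of each tested member of 15 gene lists, circadian time 18 minus 10 on the log2(signal + 51) scale, with the number tested in brackets; filled points passed the adjusted threshold (red higher, blue lower), open points did not, and black bars are medians. Cholesterol synthesis (median 0.56) and heat shock (0.39) lie to the right, immediate early genes (-0.55) to the left, steroid synthesis close to 0, and liver markers (0.95) are high with no member called.

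In the medulla, the catecholamine enzymes at the ends of the pathway were higher. Pnmt, which turns noradrenaline into adrenaline, had signals of 2183, 2532 and 2300 against 5348, 5982 and 3141 (0.98 ± 0.21, limma adjusted p = 0.036). Th, the first enzyme of the pathway, had 3564, 3927 and 4221 against 4691, 6275 and 6205 (0.54 ± 0.12, limma adjusted p = 0.0424), and Npy, a cotransmitter, rose by 0.55 ± 0.12. Ddc and Dbh, the enzymes between Th and Pnmt, were not called (-0.30 and -0.21, limma adjusted p = 0.16 and 0.33). Phox2a, a transcription factor of the lineage, fell by -0.73 ± 0.14 (limma adjusted p = 0.025). Over 23 tested chromaffin cell genes there were 3 rises and 1 fall (17.4% called, against 6.01% of all genes) with a median of -0.11, and the granule proteins Chga and Chgb, general markers of these cells, had -0.10 each (limma adjusted p = 0.503 and 0.499). In whole glands fewer cells of a type and less RNA per cell cannot be told apart. The call of Pnmt was lost without any 1 profile other than 78 h replicate 2, without which the difference was 1.26 (limma adjusted p = 0.00147). The call of Th was lost without any 1 profile other than that of 54 and 78 h replicate 1, and without 78 h replicate 2 it had 0.47 (limma adjusted p = 0.0608). In the outer cortex, 4 of 15 genes of zona glomerulosa and zonation fell and none rose (26.7% called, against 2.44% of all genes that fell), with a median of -0.195, or -0.0877 without 78 h replicate 2. They were Lef1 (359, 342 and 369 against 151, 208.5 and 126, -0.96 ± 0.15, limma adjusted p = 0.0131), a WNT effector, Znrf3 (-0.57 ± 0.12), which lowers WNT receptors, and the hedgehog ligand Shh and its receptor Ptch1 (-0.59 ± 0.13 and -0.49 ± 0.11). Their calls were lost without any 1 of the 3 profiles of circadian time 10. Second probe sets of Lef1 (-0.20) and Ptch1 (0.28) were not called, while that of Shh was called lower (-0.69).

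Part of the subunits of the respiratory complexes, of the mitochondrial ribosome and of the proteasome were higher at circadian time 18. Of 91 tested genes of the respiratory chain and ATP synthase 22 rose and none fell (24.2% against 3.57%), with a median of 0.17. Atp5e, the epsilon subunit of ATP synthase, had signals of 1808, 1801 and 1796 at circadian time 10 and 3606, 3119 and 3671 at circadian time 18. The early profiles were nearly equal and the late ones all higher (0.92 ± 0.09, limma adjusted p = 0.00417), and the call held without any 1 profile. Atp5g1, Ndufb2 and Atp5l rose by 0.91 ± 0.11, 0.97 ± 0.13 and 0.51 ± 0.07 (limma adjusted p = 0.00596, 0.00762 and 0.00805). Cox8a and Uqcr11 had the largest differences, 1.08 and 1.07. Of 73 tested proteins of the mitochondrial ribosome 17 rose and none fell (23.3% against 3.57%), with a median of 0.27. Mrps16 had 1347, 1286 and 1326 against 2521, 2164 and 2756 (0.88 ± 0.11, limma adjusted p = 0.00657), and Mrpl20 and Mrpl14 rose by 0.92 and 0.96. Of 40 proteasome subunits 7 rose and 1 fell, or 20% called against 6.01% of all genes. The subunit that fell was Psmb2 (-0.72 ± 0.10, limma adjusted p = 0.00968). Of 42 cytoplasmic ribosomal proteins 5 rose and none fell (11.9% against 3.57%), with a median of 0.105. The calls of the respiratory chain went from 22 to 1, 8, 5 and 13 without 46 h replicate 1, 46 h replicate 2, the 70 h profile and the profile of 54 and 78 h replicate 1. Those of the mitochondrial ribosome went from 17 to 0, 5 and 1 without the first 3 of these, and those of the proteasome from 8 to 0, 1 and 1. Without 78 h replicate 2 the counts were 23, 15 and 9. With the 5' 18S covariate they were 1, 0 and 0, and with Alb as a covariate 8, 3 and 1. Over all genes the calls went from 834 to 53, 166, 103 and 485 in the same order of leave-outs. They were 860 without 78 h replicate 2, 74 with the 5' 18S covariate and 184 with Alb. At an unadjusted p under 0.05 by limma on all 6 profiles, 38 of 91 respiratory chain genes passed. So did 40 of 73 mitochondrial ribosomal proteins and 19 of 40 proteasome subunits, against 3086 of all 13880 genes.

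The levels of the mitochondrial genes were also set against the other 16 arrays, which cover circadian times 2, 6, 14 and 22. Atp5e had a signal of 4552 to 5859 in all 12 profiles of those times, above each of the 6 profiles here. Mrps16 had 2550 to 3183 there. At circadian time 18 only 78 h replicate 2 reached that range, and the profiles of circadian time 10 all lay below the lowest of circadian time 18. In 71 of the 91 respiratory chain genes and 54 of the 73 mitochondrial ribosomal proteins (78% and 74%), circadian time 18 lay nearer the mean of the other arrays than circadian time 10 did, against 55.6% of all tested genes. This was not particular to mitochondrial genes. The share was 76.2% for heat shock, 68.4% for clock output, 65% for the proteasome and 66.1% for all 834 called genes. For cholesterol synthesis it was 42.1%. The median log2 difference from that mean was -0.248 and -0.325 for the respiratory chain and the mitochondrial ribosome at circadian time 10, and -0.0357 and -0.0612 at circadian time 18. Circadian times 10 and 18 were measured on this array set alone, so the set and these times cannot be told apart for a level.

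A 24 h cosine fitted to those 12 profiles gives a value for circadian time 18 minus 10 that shares no array with the comparison. That extrapolation called 502 genes, 3.62% of those tested. Of the 834 called here, 132 were called the same way by it and 3 the opposite way. These are 15.8% of the 834 and 26.3% of the 502. Its sign matched in 80.7% of the 834, and in 61.1% of all genes. Nr1d1 had -3.09 measured and -2.93 extrapolated, Dbp -3.27 and -3.66, Tef -0.68 and -0.65, and Cirbp -1.67 and -1.56. Cry1 had 1.55 and 2.34, a departure that did not pass (limma adjusted p = 0.0816). Cholesterol synthesis had a median of 0.56 measured and 0.45 extrapolated, with 10 genes called in each, and heat shock 0.39 and 0.36. Fdps had 1.31 and 1.21, Cyp51 1.26 and 1.47, and Mrap 0.76 and 0.65. The respiratory chain had medians of 0.174 and -0.000193. None of its 91 genes was called by limma in the extrapolation, where 8 had an unadjusted p under 0.05.

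The difference between measured and extrapolated values was tested in 1 limma fit over all 18 profiles, and 700 genes departed, or 5.04%, of which 439 were among the 834. None of the 19 cholesterol synthesis genes, 1 of 21 heat shock genes (Fkbp4) and none of the 14 immediate early genes departed. At an unadjusted p under 0.05 in this limma test 2, 4 and 3 of them passed, against 2514 of all 13880 genes. Of the mitochondrial ribosomal proteins 22 of 73 departed, of the respiratory chain 18 of 91, of the proteasome 11 of 40 and of the ribosomal proteins 10 of 42. Among core clock genes 3 of 19 departed: Arntl rose more than extrapolated (by 1.58, limma adjusted p = 0.0319), Ciart fell more (by -0.64, adjusted p = 0.0327), and Nr1d2 fell less (0.90, adjusted p = 0.0389). At circadian time 10 Arntl was listed at 0 in 2 of the 3 profiles, so the size of its departure depends on the offset. Per1 had -1.76 measured and -0.50 extrapolated, which did not pass (departure -1.26, limma adjusted p = 0.0635). Of the clock output genes 2 departed. Hlf fell here by -0.78 against 0.06 extrapolated (limma adjusted p = 0.0109). Wee1, not called here, had -0.44 against 0.11 extrapolated (limma adjusted p = 0.0458). A departure is measured against a cosine, so a rhythm of another shape and an effect of the array set cannot be told apart by it. Leaving out 1 profile gave between 448 and 1344 departing genes.

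**Figure D4:**
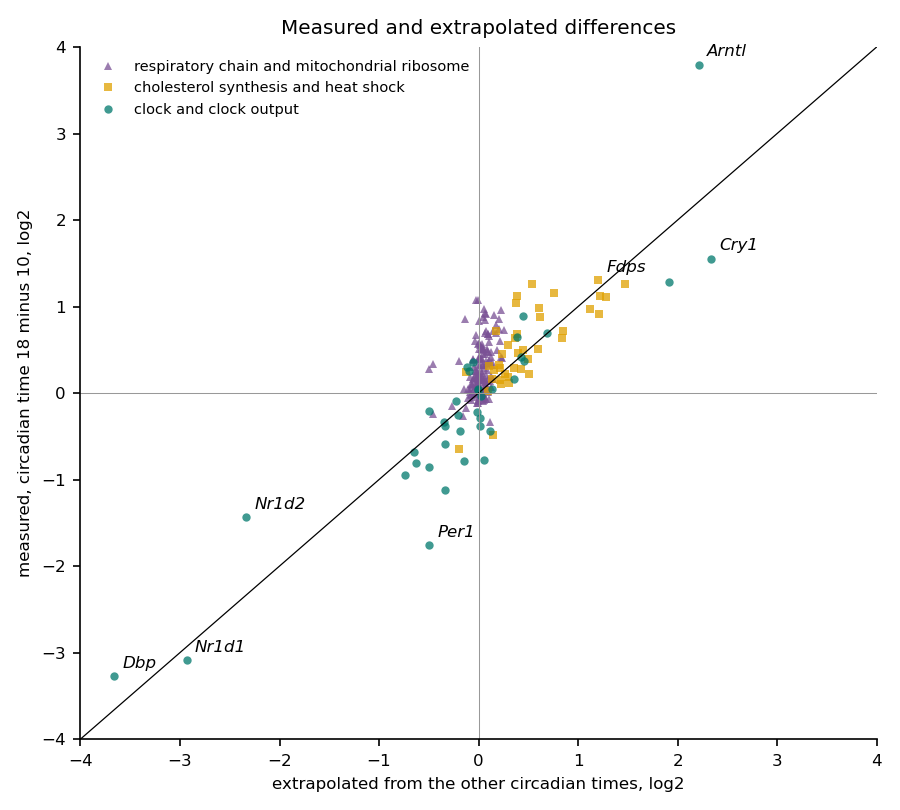
Measured difference between circadian times 18 and 10 (vertical axis, log2) against the difference extrapolated by a 24 h cosine from the 12 profiles of the other circadian times (horizontal axis, log2), with the line of equal values. Nr1d1, Dbp and many cholesterol synthesis and heat shock genes lie near the line. Arntl and Nr1d2 lie above it, and Per1 and Cry1 below it. Respiratory chain and mitochondrial ribosomal genes spread upwards at extrapolated values near 0.

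**Figure D5:**
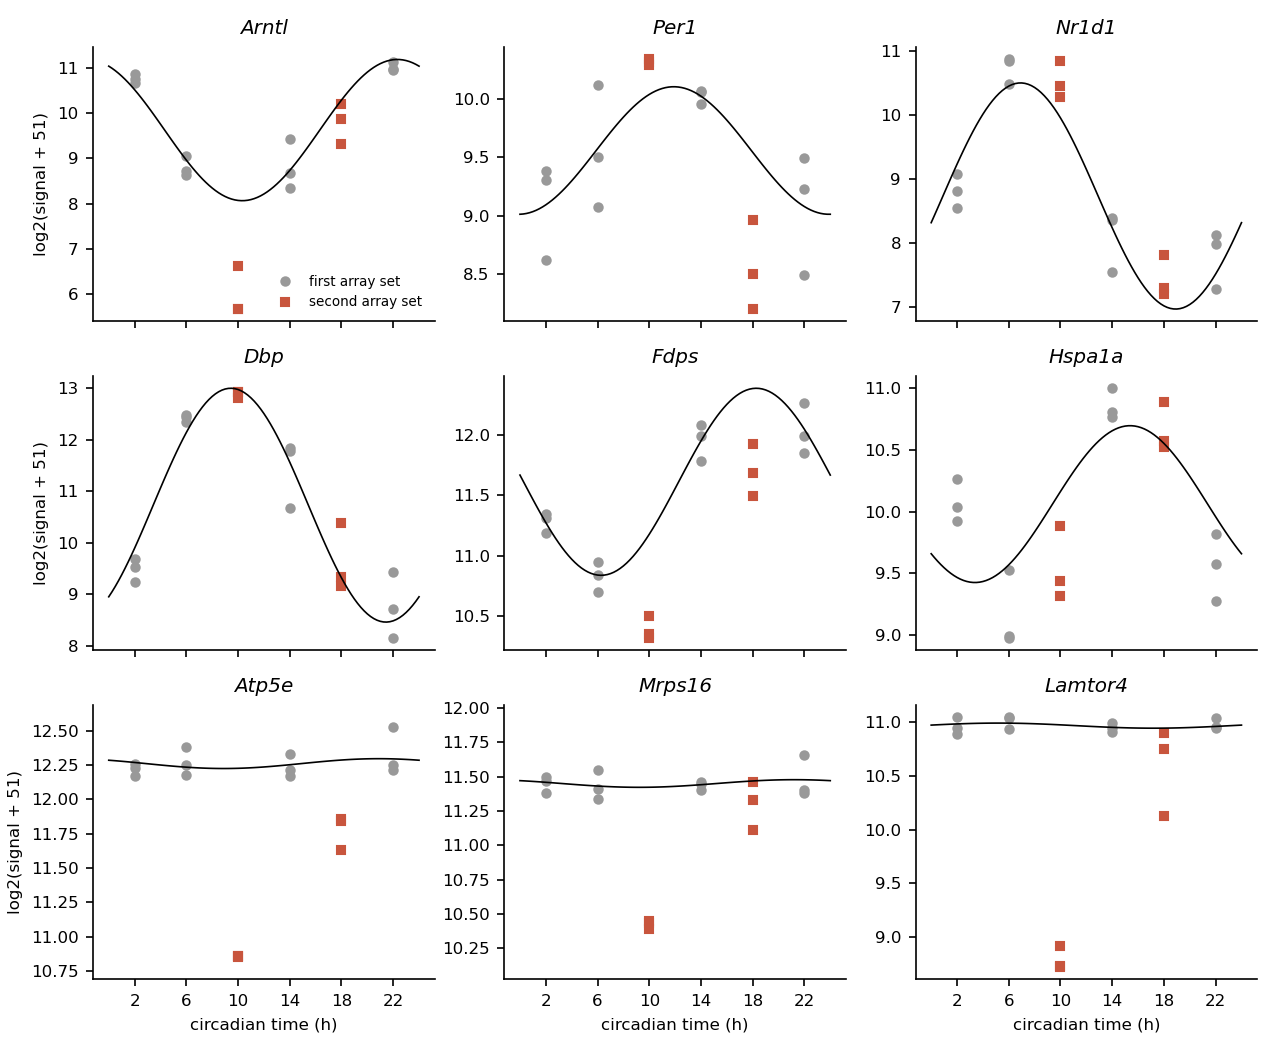
Levels of 9 genes as log2(signal + 51) in all 18 profiles by circadian time, with grey circles for the 12 profiles of circadian times 2, 6, 14 and 22, red squares for the 6 profiles of circadian times 10 and 18, and a black line for the 24 h cosine of the grey points. Nr1d1 and Dbp lie near the line at both times, Fdps lies below it at both, Per1 lies below it at circadian time 18, and Atp5e, Mrps16 and Lamtor4 are level in grey and lowest at circadian time 10 in red.

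Outside the lists, some of the largest differences had extrapolated values near 0 and others did not. Lamtor4, a subunit of the Ragulator complex on lysosomes, had 371.5, 374 and 431 against 1667, 1067 and 1856 (1.80 ± 0.19, limma adjusted p = 0.00458), with 1848 to 2074 in the 12 other profiles and -0.03 extrapolated. Cryba4, a crystallin, had 216, 231 and 192 against 702, 901.5 and 718 (1.64 ± 0.13, limma adjusted p = 0.00282), and the orphan receptor Gpr12 rose by 1.59 ± 0.17. Both also had positive extrapolated differences, 0.83 and 0.75. Ahsa2, a relative of Ahsa1, rose by 1.42, and Ltbp1, which binds latent TGF beta, by 1.26 measured and 1.26 extrapolated. Thsd7a rose by 1.38 and 1.20 extrapolated, although its second probe set had -0.41. Crb1, Slc5a11, Acsm2 and 4933431K23Rik also rose, by between 1.47 and 1.70, from signals of 27.0 to 244.8 at circadian time 10. The call of Slc5a11, a sodium-coupled inositol transporter, was lost without any 1 profile other than 54 h replicate 2. Rian, an imprinted long noncoding RNA, was lower. It had 1139, 801 and 1054 against 81, 212 and 66 (-2.70 ± 0.29, limma adjusted p = 0.00458), with 1698 to 2938 in the other 12 profiles. Sp3, a ubiquitous transcription factor, had 1157, 1126 and 926 against 115.5, 281 and 16.6 (-2.85 ± 0.48, limma adjusted p = 0.0162), with the lowest signal in 78 h replicate 2, and -2.25 without that profile. Its call was lost without any 1 of 4 other profiles. Irs2, an insulin signalling adaptor, fell by -1.88 and Pim3, a kinase, by -1.49, and Hmox1, heme oxygenase 1, from 2349, 2174 and 2698 to 619, 1213 and 775 (-1.46 ± 0.22, limma adjusted p = 0.0111). Dhdh, Net1 and Spint2 fell by between -1.47 and -1.75.

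The remaining lists gave between 0 and 5 calls each, against 6.01% of all genes. Of 15 heme and iron genes Tfrc, the transferrin receptor, rose (1.04 ± 0.23) and Hmox1 and the iron exporter Slc40a1 fell (-0.62 ± 0.13 for the latter), or 20% called. Of 17 redox genes 4 rose (Srxn1, Gpx4, Txn2, Txn1) and Prdx3 fell, or 29.4% called. Of 15 amino acid transporters Slc7a5 and Slc7a2 fell (-1.16 ± 0.25 and -0.81 ± 0.09, limma adjusted p = 0.0352 and 0.00546), or 13.3% called. Of 22 replication genes Pcna and Dut rose (0.59 ± 0.10 and 0.50 ± 0.12), of 13 Kruppel-like factors Klf9 and Klf4 fell, and of 19 translation initiation genes Eif6 rose and Eif4b fell. These are 9.09%, 15.4% and 10.5% of the lists. None of 14 glucocorticoid-induced genes and none of 14 collagens was called by limma. At an unadjusted p under 0.05 by limma 4 and 1 of them passed, against 3086 of all 13880 genes.

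Transcripts of muscle and liver varied between the profiles and were set apart. Acta1, skeletal actin, had signals of 3675, 31.8 and 4365 at circadian time 10 and 8041, 192 and 1760 at circadian time 18, and Ckm, muscle creatine kinase, 1419, 218 and 1527 against 5034, 279 and 991. Both were low in 46 h replicate 2 and 54 h replicate 2, so each circadian time held high and low profiles. Alb, serum albumin, had 934, 742 and 841 against 3649, 771 and 8621. The 10 tested liver markers all had differences above 0 with a median of 0.95, or 0.449 without 78 h replicate 2, and the 13 muscle markers had a median of 0.33, with summed signals of 8097 to 17070 against 9056 to 38000 for muscle and 15110 to 18150 against 15120 to 42500 for liver. Of the muscle, liver, blood, fat, kidney, leukocyte and adrenal cortex lists no tested member was called by limma. In that order 1, 5, 0, 1, 0, 1 and 3 members had an unadjusted p under 0.05 by limma. The lists had 13, 10, 4, 8, 4, 10 and 8 tested members, and 3086 of all 13880 genes passed that unadjusted cut-off. Acta1 itself was not among the tested genes. Of 6 tested pancreas markers 1 was called, Cela1, which was higher (0.51 ± 0.10, limma adjusted p = 0.0227). The list had a median of 0.0326, with 3 differences above 0. Of 9 endothelial markers 1 was called, Pecam1, which was lower (-1.07 ± 0.16, limma adjusted p = 0.0106). That list had a median of 0.0223, with 5 above 0. These are 16.7% and 11.1% called, against 6.01% of all genes. Removing the muscle, liver and blood genes left 856 calls, with a muscle score as a covariate there were 491, and with Alb as a covariate 184. With Alb as a covariate Arntl, Cry1, Per1, Nr1d1, Nr1d2, Dbp, Fdps, Cyp51, Fkbp4, Hspa1a, Atp5e and Mrps16 were among the genes still called, and no immediate early gene was.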

How the data were processed

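Whole-adrenal RNA was hybridised to 24 single-colour arrays, and the authors deposited 1 linear intensity per probe set and array. Per the labels' protocols, total RNA was extracted with the RNeasy Micro Kit and labelled with biotin. The summarisation and scaling behind the deposited intensity values are not given in the sources used here, so no background correction or normalisation was repeated, and depth has no meaning for arrays beyond their number.

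The 64 control probe sets of 45101 were set aside. Of the rest, 34945 had 1 gene symbol (34741 found in the reference), 932 several and 9211 none listed. Those with several or none were not named. Columns whose signals above 50 differed by no more than about 5% were averaged on the log2 scale and counted once (6 pairs in the series, 18 profiles left). Values were taken as log2(signal + 51), 51 being the 10th percentile of signal, and a fold is on that scale, which understates the change of dim genes. Genes under the 40th percentile of mean level (signal 183) were left out, and the brightest probe set stood for its gene, which gave 13880 genes. R 4.3.3 and limma 3.58.1 (lmFit, eBayes with trend) compared the 3 and 3 profiles, with Benjamini-Hochberg adjustment and a threshold of 0.05. The scripts were tested on simulated data. The extrapolation used a 24 h cosine and sine on the 12 profiles of circadian times 2, 6, 14 and 22. The departure was a term for circadian time 18 against 10 in a fit of all 18 profiles with array set, cosine and sine.

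Named genes were all tested core clock and clock output genes, the 15 largest called rises and 15 largest called falls without overlap outside the marker lists, and up to 4 called genes with the lowest p of each other list. Further members named beside a list's count, such as enzymes that were not called, were chosen after their values were seen. The comparison, its members and the 34 gene lists were chosen with earlier results of these data known. Alternatives were other offsets, filters, normalisations, weights, blocks, covariates and samples left out, and the 5' 18S covariate was added after the data were seen.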

Additional observations from a re-analysis of the deposited data

Results flagged for a closer look

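These named genes were called, and their measured difference between circadian times 18 and 10 also departed from the difference the other array set extrapolates. The departure is by limma's test on all 18 profiles. Wee1, a named gene that departed without being called, is left out here. The value given is the measured minus the extrapolated log2 difference, and a positive value means a larger rise or a smaller fall here. Since each circadian time was measured on 1 array set alone, a rhythm that a 24 h cosine does not describe and an effect of the array set cannot be told apart.

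In the clock, Arntl had 1.58 and Nr1d2 0.90, while Ciart had -0.64 and the output factor Hlf -0.83. Among mitochondrial genes, Ndufb2 had 0.915, Atp5e 0.86, Atp5g1 0.75 and Atp5l 0.43, and of the mitochondrial ribosome Mrpl20 had 0.84, Mrps16 0.83, Mrpl14 0.74 and Mrps21 0.61. The sign was positive in each of these 8 genes. Of the proteasome, Psma4 had 0.54, Psmb6 0.4975 and Psmb5 0.33, and Psmb2 had -0.69. Of the cytoplasmic ribosome, Rps27l had 0.57, Rpl8 0.27 and Rpl19 0.27.

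Other genes above the extrapolation were Lamtor4 with 1.83, Slc5a11 with 1.66, Crb1 with 1.47, Fkbp4 with 0.72, Cela1 with 0.70, Eif6 with 0.69, Npy with 0.68, Gpx4 with 0.64 and Dut with 0.57. Those below it were Rian with -2.94, Sp3 with -2.67, Irs2 with -1.42, Spint2 with -1.25, Pecam1 with -1.13, Slc7a2 with -1.07, Klf4 with -0.82 and Lef1 with -0.78.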

How the results depend on the processing

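Leaving out 1 profile gave 53 to 1293 called genes against 834, 30 to 708 of them higher against 496 and 23 to 585 lower against 338, and 448 to 1344 departing genes against 700. The lowest counts came without 46 h replicate 1 and the highest without 54 h replicate 2. Taking all 8 columns as independent, near-copies included, gave 2830 calls (1473 higher, 1357 lower), and a block for the cycle over those columns gave 2872 (1508 and 1364). Correlations of deviations between same-numbered arrays ran from -0.19 to 0.17 over 8 pairs. With so few arrays, near-copies among them, this cannot show whether the replicate numbers pair samples. A replicate block over the 8 columns gave 2733 calls (1424 and 1309). Fitting all 18 profiles at once gave 2940 calls (1611 and 1329), array weights 1507 (846 and 661), and every probe set tested on its own 1403 (678 lower). With a muscle score as covariate there were 491 calls (294 and 197), with Alb 184 (95 and 89), and with the 5' 18S signal, chosen after seeing the data, 74 (35 and 39). Taking all 24 columns as independent gave 2181 departing genes. Fewer or more samples, or fewer residual degrees of freedom, are part of these alternatives, and otherwise the cause was not tested. The other offsets, filters, normalisations and the Gapdh ratio covariate kept the counts within 1.5 times. Without probe sets whose names carry the suffix x, s or a, Fkbp4 had -0.0400 and Eif6 -0.17, with the sign turned (limma adjusted p = 0.937 and 0.559). The probe sets used for both genes otherwise carry the suffix a.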
